A study of Mus musculus with 16 samples.

Results

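The p53 tumour suppressor, encoded by Trp53, is a transcription factor that is kept low in resting cells and accumulates after DNA damage, nucleolar stress or oncogene activity. It binds paired half-sites in DNA and raises genes that arrest the cell cycle, repair DNA, limit growth signalling or prepare apoptosis, and one of its targets, Mdm2, encodes the ubiquitin ligase that degrades it. Many p53-driven deaths pass through the BCL-2 family, in which venetoclax occupies BCL-2 itself and so acts downstream of p53. In lymphocytes p53 is known for the death of thymocytes and mature T cells after irradiation.

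Described here are 10 genes of that pathway, taken by symbol from a list of Trp53 and textbook p53 targets: Trp53, Mdm2, Ccng1, Trp53inp1, Sesn1, Zmat3, Aen, Fas, Plk2 and Ei24. All 10 were measured in each of the 16 libraries, out of 11171 genes in conventional CD4+ FOXP3- T cells (Tcon), 11067 in CD4+ FOXP3+ regulatory T cells (Treg) and 10774 shared by both. The mice were B6.Cg-Foxp3tm2Tch/J (FOXP3-IRES-GFP), labelled WT, so every group carries the GFP reporter behind Foxp3, and they received vehicle or venetoclax at 50 mg/kg for 14 days. Each of the 4 groups (Tcon or Treg, vehicle or venetoclax) had 4 libraries of total RNA from spleen and lymph node, labelled as biological replicates. Facts not given in the sources used here include the sort gates, the sex and age of the mice, and whether animals were pooled.

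The values are normalized read counts, the reads of a gene divided by a size factor of the library, and libraries held from 21335006 to 25027038 reads. The sort labels were borne out by Foxp3, at 27.3 to 32.4 CPM in Tcon and 748 to 900 CPM in Treg of vehicle mice, where CPM are reads scaled so that every library has an equal sum. Cd4 was at 876 to 1091 CPM in Tcon and 730 to 769 CPM in Treg of vehicle mice, and Bcl2, which encodes the protein that venetoclax binds, went from 5192 ± 1282 to 11148 ± 1369 normalized counts in Tcon and from 8298 ± 508 to 8376 ± 539 in Treg. Reads of the Y-linked gene Ddx3y split the mouse codes in a way the labels do not mention. Its normalized count was 5664 in vehicle replicate 2 and 6674 in venetoclax replicate 2 of Tcon, 1468 and 3050 in venetoclax replicates 1 and 3, and 0 or 1 in the other 4, and the Treg libraries of the same codes showed the same split. Counts above 1 thus lay in replicate 2 of vehicle and in replicates 1, 2 and 3 of venetoclax, so the split is uneven between the treatments. Its part in the venetoclax changes cannot be fully told apart from that of the drug. Results of the members without venetoclax replicates 1 and 3 together are therefore given where a call ended, and those of the gene lists as counts. Vehicle replicate 3 and venetoclax replicate 3 of Tcon lay apart from the other Tcon libraries on the second principal component, and results without both libraries numbered 3 are given in the same way.

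The stretches of DNA around the start sites of these genes were searched for short known elements. RefSeq promoter windows of GRCm38.p6, 300 bases each, were matched for 8 members (10 windows, since Aen and Sesn1 have a pair of start sites each), and Trp53inp1 and Zmat3 had none. A p53 half-site, the 10-base unit that p53 binds in pairs, was searched on both strands. The 4 windows below are printed 5′ to 3′ on the strand of the gene, 250 bases up to the start site. Ccng1 and Sesn1 are shown because they rose in Treg, Mdm2 because it did not pass the test although it is the classical target, and Plk2 because it fell. Of the Sesn1 windows the downstream one is printed, and the upstream one held no half-site. Capitals mark the p53 half-site in the first 3 and the cyclic AMP response element TGACGTCA in Plk2.
Ccng1, chr11:40755287-40755536, minus strand: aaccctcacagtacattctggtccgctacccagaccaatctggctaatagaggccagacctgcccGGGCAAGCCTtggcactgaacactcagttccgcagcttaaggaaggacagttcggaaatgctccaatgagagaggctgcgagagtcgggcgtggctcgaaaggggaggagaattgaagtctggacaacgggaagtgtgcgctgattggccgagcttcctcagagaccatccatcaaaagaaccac
Sesn1, downstream start site, chr10:41887189-41887438, plus strand: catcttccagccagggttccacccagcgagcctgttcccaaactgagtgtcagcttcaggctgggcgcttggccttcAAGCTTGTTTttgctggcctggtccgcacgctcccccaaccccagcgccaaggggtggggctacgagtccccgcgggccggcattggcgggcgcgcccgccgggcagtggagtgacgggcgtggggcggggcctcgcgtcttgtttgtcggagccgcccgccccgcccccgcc
Mdm2, chr10:117710759-117711008, minus strand: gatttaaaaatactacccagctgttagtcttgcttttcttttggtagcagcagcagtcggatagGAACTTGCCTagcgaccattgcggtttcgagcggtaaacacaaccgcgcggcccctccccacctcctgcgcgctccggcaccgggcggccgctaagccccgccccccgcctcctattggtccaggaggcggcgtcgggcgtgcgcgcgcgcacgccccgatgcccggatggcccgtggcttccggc
Plk2, chr13:110394794-110395043, plus strand: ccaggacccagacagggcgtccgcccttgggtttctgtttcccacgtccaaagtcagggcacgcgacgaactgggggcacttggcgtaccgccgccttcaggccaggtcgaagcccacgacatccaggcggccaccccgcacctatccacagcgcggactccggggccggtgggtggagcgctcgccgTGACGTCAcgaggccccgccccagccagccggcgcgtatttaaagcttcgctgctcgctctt

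A half-site lay in 7 of the 10 members' windows and in 8.36% of all 32851 RefSeq promoter windows of the same length. The members were chosen as Trp53 and known p53 targets, so the shares are set side by side as a description only. The 7 windows include both of Aen, which hold the same site. Beside GGGCAAGCCT in Ccng1, AAGCTTGTTT in Sesn1 and GAACTTGCCT in Mdm2, the half-sites were GGGCTTGTCC in Aen, in the overlapping windows of both starts, GGGCATGCCC in Ei24 and GGACTTGCCC in Trp53 itself. A pair of half-sites within a spacer of 0 to 13 bases lay in none of the members' windows and in 0.0731% of all windows. The element TGACGTCA, which reads the same on both strands, lay in Plk2 alone among the members, 62 bases before the start, and in 1.79% of all windows. It was searched for after the Plk2 values and sequence had been seen, and the Plk2 window held no half-site. These matches are descriptions of letters, and binding was not measured.

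Expression was first compared between the subsets in vehicle mice, which asks where the pathway stands before the drug. Trp53inp1, a cofactor that steers p53 and takes part in autophagy, was the highest member per kb of exon in both subsets, at 70.3 ± 3.1 CPM per kb in Tcon and 108 ± 6.8 in Treg (SD, n = 4 each). Ccng1, a cyclin that recruits a phosphatase to Mdm2, came next at 58.8 ± 6.5 and 68.4 ± 2.3 CPM per kb. In Tcon, Trp53 (36.7 ± 3.4 CPM per kb) and the sestrin Sesn1 (34.9 ± 2.8), an inhibitor of mTORC1 signalling, overlapped, and Mdm2 (22.3 ± 1.7), the death receptor gene Fas (16.1 ± 2.5), Ei24 (11.6 ± 0.53) and the nuclease gene Aen (6.22 ± 0.39) followed. In Treg the order differed by Sesn1, at 57.1 ± 3.2 CPM per kb, above Trp53 at 38.8 ± 0.31, and by Fas, at 29.5 ± 1.4, above Mdm2 at 21.2 ± 2.0. At the low end the RNA-binding factor Zmat3 (2.61 ± 0.55 in Tcon and 3.37 ± 0.26 in Treg) and the stress kinase Plk2 (2.42 ± 1.8 and 4.62 ± 2.7) overlapped in both subsets, and in Treg Plk2 also reached into the range of Aen (6.66 ± 0.31). The other neighbours in each order did not overlap.

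**Figure D1:**
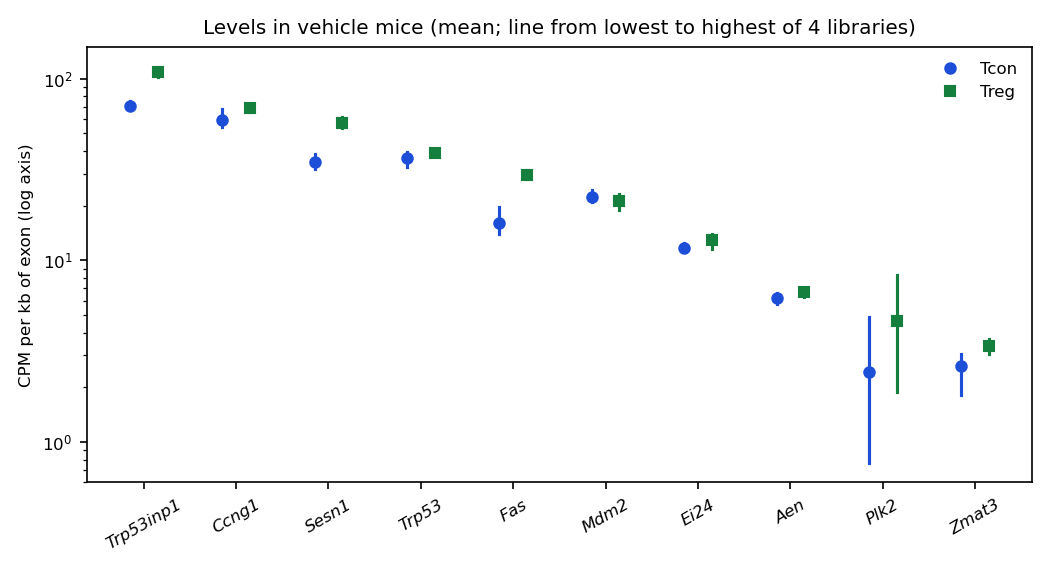
Level of each member in vehicle mice in CPM per kb of exon (log axis), Tcon as circles and Treg as squares, with the mean of 4 libraries and a line from the lowest to the highest. Treg lie wholly above Tcon for Trp53inp1, Sesn1, Fas and Zmat3, and Plk2 has the widest range.

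In vehicle mice 4 of the 10 members lay higher in every Treg than in every Tcon library, against 24.5% of all shared genes, and none lay wholly higher in Tcon, against 12% of them. By edgeR 3 members were higher in Treg, against 19.8% of all shared genes. Fas was at 60.89 ± 2.88 CPM in Treg and 33.18 ± 5.15 CPM in Tcon (1.84-fold; adjusted p = 0.000482, edgeR, n = 4 each). Sesn1 was at 227.3 ± 12.8 against 138.9 ± 11.3 CPM (1.64-fold; adjusted p = 0.000209, edgeR). Trp53inp1 was at 697 ± 43.8 against 455.3 ± 19.8 CPM (1.53-fold, adjusted p = 0.000475, edgeR). These folds are ratios of mean CPM, at log2 ratios of 0.88 for Fas, 0.71 for Sesn1 and 0.61 for Trp53inp1. The edgeR log2 estimates were 0.80, 0.63 and 0.54. For every member the edgeR estimate of Treg over Tcon was lower than the log2 ratio of mean CPM. The fourth, Zmat3, was at 38.48 ± 3.02 against 29.83 ± 6.28 CPM without overlap, with an adjusted p of 0.0795 in edgeR and 0.0104 with the mouse code as a block, under which Plk2 (0.00645, Treg higher) and Mdm2 (0.0438, Tcon higher) also passed. Trp53 itself overlapped, at 156.9 ± 1.27 CPM in Treg and 148.5 ± 13.6 in Tcon, as did Aen, Ei24 and Ccng1. The count of members without overlap was 7 without Treg vehicle replicate 3. The share of all shared genes is set beside neither this count nor the calls with the block. The tables were normalized separately, so these levels rest on CPM over the shared genes. Among venetoclax libraries 6 of the 10 members lay wholly higher in Treg, against 30.2% of all shared genes, with Ccng1 and Ei24 joining the 4.

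Venetoclax in Treg changed 5 of the 10 members at an adjusted p under 0.05 (limma over all genes), 4 of them upward and Plk2 downward. Over all Treg genes 19.6% passed, 10.7% upward and 8.81% downward. The 4 that rose, Ccng1, Trp53inp1, Sesn1 and Zmat3, rose by 14.16% to 22.83%, and each was higher in every venetoclax than in every vehicle library, as were 12% of all genes. The same 5 members were called by edgeR (19.8% of all genes), by DESeq2 (21.8%) and in the authors' deposited table (20.5%). In bulk RNA of a sorted subset, fewer cells of a kind and less RNA per cell cannot be told apart.

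**Figure D2:**
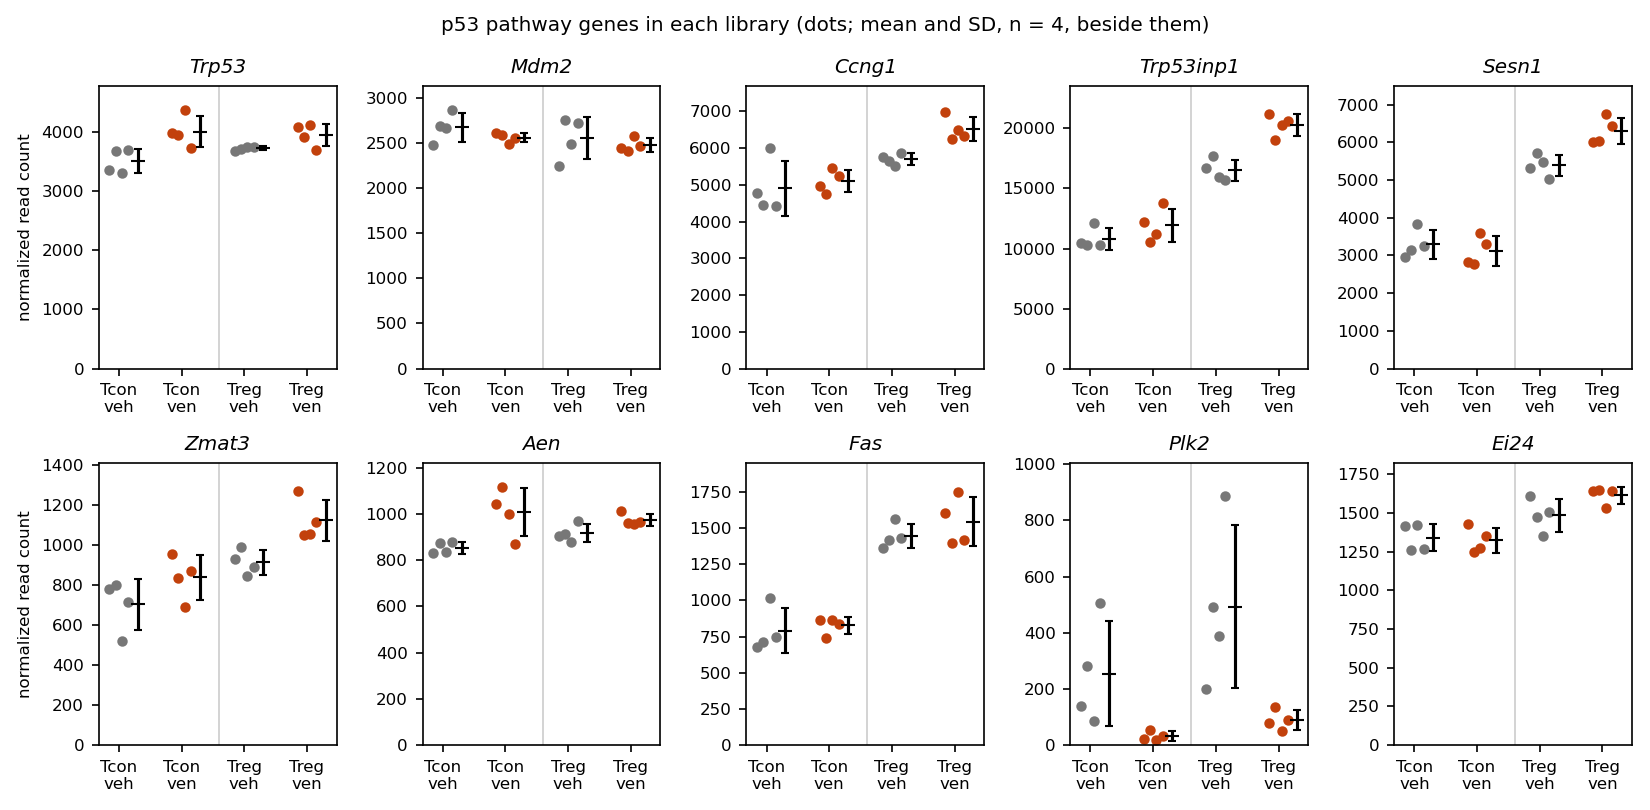
Normalized read count of each member in every library (dots, in replicate order, vehicle grey and venetoclax orange), with the mean and SD of 4 libraries beside them; the axes start at 0 and Tcon and Treg were normalized separately. In Treg the venetoclax dots of Ccng1, Trp53inp1, Sesn1 and Zmat3 lie above all vehicle dots, and those of Plk2 lie below in both subsets.

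Trp53inp1 (chr4:11156441-11174379, GRCm38.p6) was at 16681, 17713, 15992 and 15723 normalized counts in the vehicle Treg libraries and at 21230, 19009, 20282 and 20611 in the venetoclax libraries. All 4 venetoclax libraries were higher than the highest vehicle library. The mean went from 16527 ± 888 to 20283 ± 936 (SD, n = 4 each), a log2 change of 0.296 with a standard error of 0.056 (adjusted p = 0.00339, limma).

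Zmat3 (chr3:32334792-32365665), which binds RNA and alters splicing and mRNA stability, was at 931.4, 987.3, 843.2 and 887.4 normalized counts on vehicle and at 1269, 1049, 1055 and 1116 on venetoclax. The lowest venetoclax library was above the highest vehicle library, and venetoclax replicate 1 was the highest. Its log2 change was 0.297 (SE 0.072, adjusted p = 0.0123, limma).

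Sesn1 (chr10:41810574-41908436) was at 5329, 5721, 5473 and 5041 normalized counts on vehicle and at 6017, 6044, 6742 and 6433 on venetoclax. The groups did not overlap, and the log2 change was 0.227 (SE 0.054, adjusted p = 0.011, limma). Ccng1 (chr11:40748552-40755309) was at 5769, 5646, 5515 and 5876 normalized counts on vehicle and at 6983, 6255, 6489 and 6326 on venetoclax. Here too the groups did not overlap, and the log2 change was 0.191 (SE 0.048, adjusted p = 0.015, limma).

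The 4 rises passed without any 1 of the 8 Treg libraries, with adjusted p of at most 0.0464 (limma). Without both libraries numbered 3, Ccng1 (log2 change 0.177, adjusted p = 0.0829) and Sesn1 (0.202, adjusted p = 0.0609) no longer passed. Without venetoclax replicates 1 and 3, which leaves 2 venetoclax libraries, the adjusted p was 0.0609 for Trp53inp1, 0.0857 for Sesn1, 0.102 for Zmat3 and 0.167 for Ccng1 (limma), with log2 changes of 0.262, 0.211, 0.248 and 0.142. Over all Treg genes the calls went from 2164 to 1028 and 614 in these fits.

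Other measures moved between the same libraries. Of the 8 Treg markers 4 were called higher, Gpr83, Nrp1, Ikzf4 and Ikzf2, beside 10.7% of all Treg genes, and 0 lower (limma). The T cell gene Cd28 rose too, 1 of 7 measured T cell genes. The summed level of the 8 Treg markers was 98024 to 106666 normalized counts on vehicle and 109899 to 118242 on venetoclax. Of 49 markers of other cell types 25 were measured in Treg, at a sum of 10007 to 11011 on vehicle and 8989 to 10587 on venetoclax. Among them Cd74 of antigen-presenting cells rose (log2 change 0.525, adjusted p = 0.0101, limma). Pecam1, listed as an endothelial marker, fell (log2 change -0.439, adjusted p = 0.000717, limma). The 2 measured genes of the stromal or endothelial list, Pecam1 among them, made up 5609.1 of the mean sum of 10330.6 on vehicle. Whether their reads came from other cells was not tested. The B cell marker Pax5 and the NK cell marker Ncr1 were not analysed here. The part of these measures in the rises was not tested.

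The other 5 members did not pass the test in Treg. Trp53 was at 3678, 3713, 3748 and 3751 normalized counts on vehicle and at 4082, 3913, 4115 and 3702 on venetoclax, and venetoclax replicate 4 lay among the vehicle libraries. Its log2 change was 0.085 (SE 0.046, adjusted p = 0.215, limma). Mdm2, the target that feeds back on p53, was at 2253, 2760, 2493 and 2732 on vehicle and at 2451, 2412, 2585 and 2475 on venetoclax. Its groups overlapped fully, at a log2 change of -0.041 (SE 0.063, adjusted p = 0.691, limma). The genes that act in cell death overlapped too: Aen, a nuclease of apoptosis, had a log2 change of 0.088 (SE 0.055), Fas one of 0.091 (SE 0.073) and Ei24, a protein of the endoplasmic reticulum tied to autophagy, one of 0.122 (SE 0.059). The exons of Ei24 share 324 bases with the antisense gene Gm26787, and a strand setting for the counting was not given in the sources used here.

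In Tcon 1 of the 10 members passed the main test, which did not pair the replicate numbers: Plk2, which fell. Over all Tcon genes 6.91% passed, 3.92% upward and 2.99% downward. With the replicate number as a block Zmat3 passed too, as did 16.8% of all genes. Plk2 was the only member called by edgeR (7.04% of all genes) and by DESeq2 (12.2%). An unadjusted p under 0.05 was reached by 3 members, Trp53, Aen and Plk2, and by 22.6% of all Tcon genes (limma). Trp53 was at 3361, 3673, 3304 and 3701 normalized counts on vehicle and at 3981, 3954, 4370 and 3722 on venetoclax. Its groups did not overlap, by a gap that was small between the closest libraries, as was so for 16.3% of all genes in either direction. Its log2 change was 0.190 (SE 0.072, adjusted p = 0.144, limma). Aen was at 829, 873.6, 833.8 and 877.9 on vehicle and at 1042, 1117, 999 and 870 on venetoclax, with the last library among the vehicle values and a log2 change of 0.233 (SE 0.083, adjusted p = 0.126, limma). Cell type markers moved in Tcon too. The 8 Treg markers summed to 3822 to 4432 normalized counts on vehicle and 4669 to 5840 on venetoclax. Of them 3 were called higher, Gpr83 (log2 change 1.01), Il2ra (0.982) and Tnfrsf18 (0.459), beside 3.92% of all genes, and 0 lower (limma). Ctla4, named here after its values were seen, went the other way without passing (log2 change -0.45, adjusted p = 0.347, limma). Foxp3 stood at 688.3 ± 50.9 on vehicle and 720.8 ± 24.1 on venetoclax. The T cell gene Cd5 fell, 1 of 7 measured T cell genes, beside 2.99% of all genes. Of 49 markers of other cells 28 were measured, at a sum of 9958 to 10756 on vehicle and 8442 to 10428 on venetoclax. The 3 measured genes of the stromal or endothelial list made up 6154.6 of the mean sum of 10202.5 on vehicle. The part of all these markers in the Tcon results was not tested.

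Zmat3 in Tcon was at 780.8, 796.7, 520.3 and 712.1 normalized counts on vehicle and at 954.7, 836, 688.5 and 870 on venetoclax. The replicates numbered 3 were the lowest of both groups, and each venetoclax library was above the vehicle library of its number. Its log2 change was 0.263 (SE 0.144), with an adjusted p of 0.319 without and 0.0328 with the replicate number as a block (limma), and over all Tcon genes 16.8% passed with the block. Ccng1 had a log2 change of 0.066 (SE 0.101), Trp53inp1 of 0.141 (SE 0.097), Fas of 0.084 (SE 0.122), Mdm2 of -0.062 (SE 0.063), Sesn1 of -0.079 (SE 0.106) and Ei24 of -0.018 (SE 0.074). None of these 6 passed the test, and their groups overlapped.

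**Figure D3:**
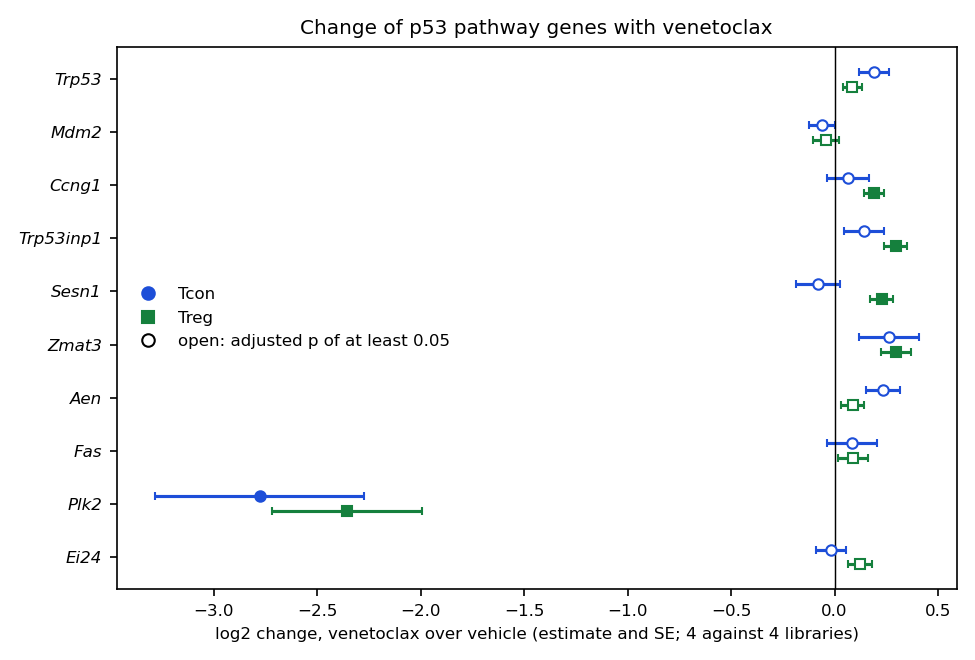
Log2 change of each member on venetoclax over vehicle, with its standard error, in Tcon (circles) and Treg (squares); filled symbols passed an adjusted p of 0.05 (limma, 4 against 4 libraries). Ccng1, Trp53inp1, Sesn1 and Zmat3 passed above 0 in Treg, and Plk2 lies far below 0 in both subsets.

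Whether the change differed between the subsets was tested as an interaction over the 16 libraries. None of the 10 members passed, against 1.3% of the 10774 shared genes (limma), nor did any in edgeR (1.31% of all genes), in DESeq2 (2.74%) or with the mouse code as a block (3.61%, limma). At an unadjusted p under 0.05 stood 1 member, Sesn1, and 10.1% of all genes. The change of Sesn1 was larger in Treg by 0.305 on the log2 scale (SE 0.124, adjusted p = 0.369, limma). For Trp53inp1 the difference was 0.155 (SE 0.113), for Ccng1 0.125 (SE 0.114) and for Zmat3 0.034 (SE 0.172), so a call in Treg and none in Tcon does not show a difference between the subsets.

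Plk2 (chr13:110395044-110400844), a polo-like kinase that is a p53 target and is also known as a serum-inducible gene, moved most. In Tcon it was at 139.6, 282.9, 86.5 and 506.5 normalized counts on vehicle and at 20.8, 55.1, 19.2 and 31.6 on venetoclax. In Treg it was at 199.5, 492.1, 388.5 and 888.4 on vehicle and at 77.9, 135.3, 50.2 and 89.3 on venetoclax. Every venetoclax library was below every vehicle library of its subset, as for 7.47% of all genes in Tcon and 10.7% in Treg, and vehicle replicate 4 was the highest in both.

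The mean of Plk2 went from 253.9 ± 188 to 31.66 ± 16.6 in Tcon, 6.86-fold lower (log2 change -2.78, SE 0.506, adjusted p = 0.00928, limma), and from 492.1 ± 291 to 88.18 ± 35.5 in Treg, 5.12-fold lower (log2 change -2.36, SE 0.362, adjusted p = 0.00096, limma). These folds are on the scale of log2 of the normalized count plus 1. The fewest reads behind a value were 19 in Tcon and 52 in Treg. Both falls passed without any 1 library (adjusted p of at most 0.0391, limma), and without venetoclax replicates 1 and 3 the fall in Tcon did not pass (log2 change -2.26, adjusted p = 0.156, limma). The difference of the falls was 0.421 (SE 0.717, adjusted p = 0.952, limma).

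Immediate early genes, which respond within minutes to receptor signals or handling, moved with Plk2. Of 30 such genes, none of them a member, 12 were called lower and 0 higher in Tcon, and 17 lower and 1 higher in Treg (limma), beside 2.99% of all genes called lower in Tcon and 8.81% in Treg. Jund, Ier2 and the AP-1 gene Fosb fell in both subsets, Gadd45b in Tcon and Klf2 in Treg, and Fosb went from 2208 ± 1519 to 232.9 ± 155 in Tcon and from 3541 ± 2099 to 338.2 ± 305 in Treg. With 1 library left out the calls lower in Tcon were 4, 7, 6 or 5 without venetoclax replicate 1, 2, 3 or 4, and 6, 5, 17 or 10 without vehicle replicate 1, 2, 3 or 4, while in Treg they were 14 to 19. Without venetoclax replicates 1 and 3 they were 1 in Tcon and 5 in Treg. With the replicate number as a block they were 19 in Tcon, beside 7.9% of all Tcon genes called lower in that fit. The share of all genes called in the left-out fits is not set beside these counts. The summed level of the 30 genes in Tcon was 107542, 139891, 60962 and 161465 normalized counts on vehicle and 56319, 70373, 34617 and 51348 on venetoclax. In Treg it was 86628, 136978, 96433 and 167391 on vehicle and 63897, 79746, 47466 and 59615 on venetoclax. As with Plk2, vehicle replicate 4 was the highest library in both subsets and venetoclax replicate 3 the lowest. The part of this list in the fall of Plk2 was not tested.

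The genes whose profile over the 8 libraries of a table was most like that of a called member were found by Pearson r of log2 values. For Plk2 they were Carns1 (r = 0.985), Cited2 (0.983) and Dnajb9 (0.983) in Tcon and Frat2 (0.991), Dusp6 (0.987) and Dnajb9 (0.984) in Treg, so Dnajb9 was named in both. In Treg the profile of Ccng1 was most like those of Sesn3 (0.99), Hspa4l (0.988) and Vps26b (0.986), and that of Trp53inp1 most like those of Cmtm4 (0.984), Nrp1 (0.982) and Nt5e (0.979). That of Sesn1 was most like those of Dcun1d4 (0.974), Tubgcp5 (0.974) and Trnt1 (0.973), and that of Zmat3 most like those of Ulk1 (0.983), Smcr8 (0.983) and Bbx (0.982). These are descriptions over 8 libraries that also share the contrast of drug and vehicle.

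Further known p53 targets, 82 genes in 5 lists that hold none of the members, were called in both directions. In Tcon 70 were measured, of which 2 were called higher and 3 lower (3.92% and 2.99% of all genes), at a median log2 change of -0.032 against 0.002 over all genes (limma). With the replicate number as a block 4 were called higher and 9 lower in Tcon (8.92% and 7.9% of all genes in that fit). In Treg 71 were measured, of which 8 were called higher and 10 lower, at a median of 0.023 against 0.005. Of all Treg genes 10.7% were called higher, close to 8 of 71, and 8.81% lower, against 10 of 71.

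Among targets that arrest the cell cycle, none of the 9 measured in Tcon and 10 in Treg rose. In each subset 2 fell, beside 2.99% of all genes in Tcon and 8.81% in Treg. With the block 4 fell in Tcon, beside 7.9% of all genes in that fit. Gadd45a, a stress sensor that restrains the G2 to M transition, fell by 0.984 on the log2 scale in Tcon (adjusted p = 0.0466, limma) and by 0.863 in Treg (adjusted p = 0.00083, limma). Ier5, an immediate early response gene, fell by 0.721 and 0.333 (adjusted p = 0.00383 and 0.00555, limma). Cdkn1a, the cyclin-dependent kinase inhibitor p21, is named here after its values were seen: it was at 9.463 ± 10.6 and 8.944 ± 2.86 normalized counts in Tcon and at 46.71 ± 15.5 and 32.57 ± 5.01 in Treg, on vehicle and venetoclax, and did not pass.

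Of the apoptosis targets none of 13 passed in Tcon. There DESeq2 called 1 higher (6.1% of all genes) and the blocked fit 1 higher (8.92%). An unadjusted p under 0.05 was reached by 2 of them and by 22.6% of all Tcon genes (limma). In Treg 2 of 14 rose and 2 fell (limma), beside 10.7% and 8.81% of all genes. The TNF receptor gene Tnfrsf1b went from 9288 ± 864 to 12018 ± 1203 (log2 change 0.371, adjusted p = 0.00568) and the BCL-2 family effector Bak1 rose by 0.248 (adjusted p = 0.0189), while the kinase gene Dapk1 fell by 0.572 (adjusted p = 0.00178) and Bax, the other effector of mitochondrial permeabilization, fell by 0.19 (adjusted p = 0.0212). Bbc3, which encodes PUMA and is likewise named after its values were seen, was at 444.6 ± 28 and 460.9 ± 36.1 in Treg.

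In the lists on repair and metabolism the translesion polymerase gene Polk rose in both subsets, by 0.311 in Tcon (adjusted p = 0.0352, limma) and 0.307 in Treg (adjusted p = 0.00526, limma). Of 12 repair genes it was the only one called higher in either subset, beside 3.92% of all genes in Tcon and 10.7% in Treg. Lower were 1 of the 12 in Tcon, Rrm2b, and 2 in Treg, among them Pcna, beside 2.99% and 8.81% of all genes. The other sestrins stood beside Sesn1. Sesn2 rose in Tcon, from 96.01 ± 14 to 146.7 ± 21 (log2 change 0.606, adjusted p = 0.0386, limma), and Sesn3 rose in Treg, from 2478 ± 76.6 to 3210 ± 325 (log2 change 0.369, adjusted p = 0.00198, limma). Sesn3 in Tcon had a log2 change of 0.332 (adjusted p = 0.0658, limma), and neither gene passed the test of a difference between subsets. Abhd4, Ulk1 and Prkab2 also rose and Gpx1 fell in Treg, so 4 of 22 redox and metabolism genes rose there, beside 10.7% of all genes.

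Of 13 targets that feed back on p53 none passed in Tcon. There DESeq2 called 2 (6.11% of all genes) and the blocked fit 3 (7.9%), all lower. An unadjusted p under 0.05 was reached by 3 of them and by 22.6% of all Tcon genes (limma). In Treg Trim32 rose and the phosphatase gene Dusp1 (log2 change -1.24, adjusted p = 0.0196, limma), Cdip1 and Ptpn14 fell. These are 1 higher and 3 lower of the 13, beside 10.7% and 8.81% of all Treg genes. Of 40 regulators of p53, 3 rose and 3 fell in Tcon (3.92% and 2.99% of all genes). With the block 6 rose and 7 fell there (8.92% and 7.9% of all genes in that fit). In Treg 3 rose and 9 fell (10.7% and 8.81% of all genes). In Tcon the deacetylase gene Sirt1 fell by 0.346 on the log2 scale and the arginine methyltransferase gene Prmt5 rose by 0.384. In Treg Daxx fell by 0.312, the acetyltransferase gene Kat5 by 0.225 and the ribosomal protein gene Rpl23 by 0.3, while the helicase gene Ddx17 rose by 0.212. The checkpoint kinase gene Chek1 went from 28.38 ± 3.37 to 103.8 ± 13 in Tcon (log2 change 1.83, adjusted p = 0.000513, limma) and from 85.27 ± 13.7 to 104.4 ± 27.4 in Treg (adjusted p = 0.353), and its change was lower in Treg by 1.57 on the log2 scale (adjusted p = 0.00487, limma interaction). Chek2 rose in both subsets, by 1.04 in Tcon and 0.514 in Treg. Beside these, 23 of 30 cell cycle genes rose in Tcon, among them Top2a, Nusap1, Bub1b and Bub1, and 2 in Treg, Tyms and Mcm6 (3.92% and 10.7% of all genes), and their part in the rises of Chek1 and Chek2 was not tested.

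**Figure D4:**
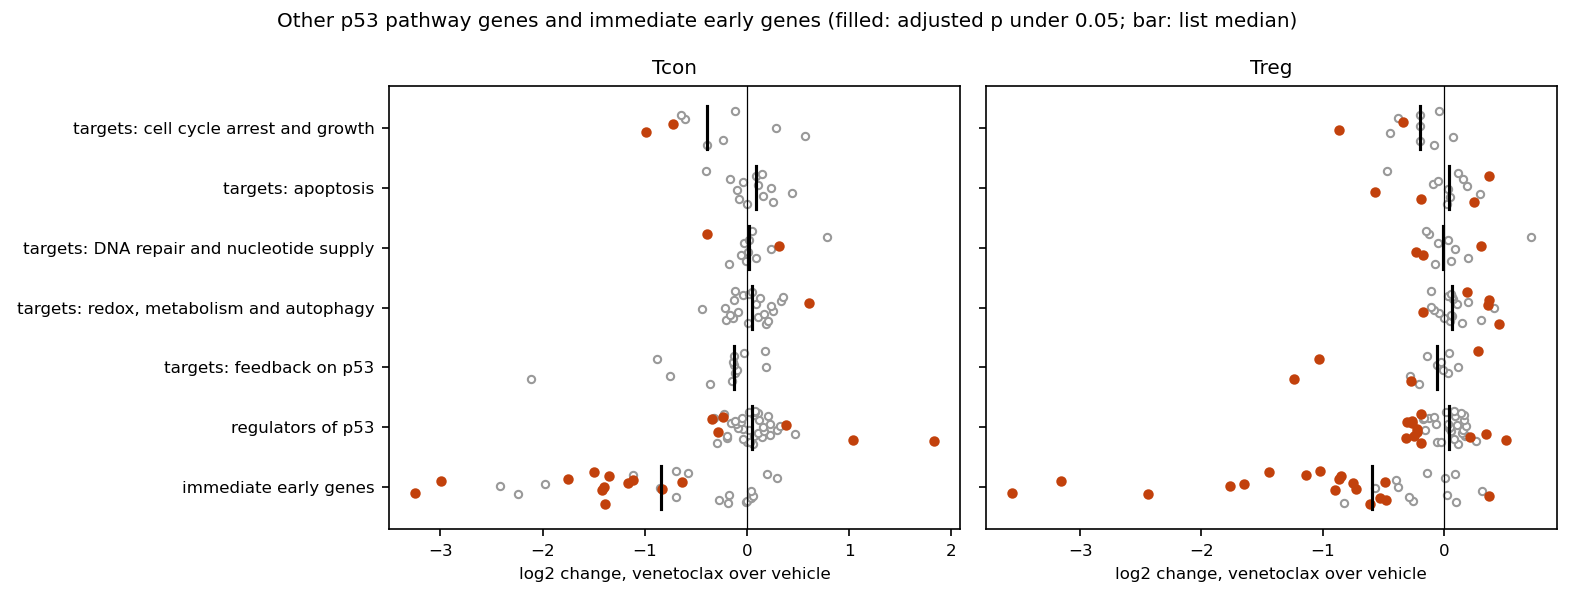
Log2 change on venetoclax of the further p53 targets, the regulators of p53 and the immediate early genes in Tcon and Treg; each dot is a gene, filled at an adjusted p under 0.05 (limma), and bars are list medians. Called targets lie on both sides of 0, while 12 of 30 immediate early genes in Tcon and 17 of 30 in Treg were called lower.

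Calls among these lists depended on single libraries more than those of the members did. The share of all genes called with 1 library left out is not set beside these counts. They therefore do not show that the lists depended on single libraries more than other genes did. Of the 5 called targets in Tcon 1, Ier5, passed without any 1 library, and of the 18 in Treg 8 did, among them Gadd45a, Ier5, Dapk1, Tnfrsf1b, Polk and Sesn3. In Tcon Sesn2, Polk and Gadd45a had an adjusted p of 0.136, 0.133 and 0.132 without venetoclax replicate 1 (limma), and each also lost its call without some other libraries. In Treg the adjusted p of Bak1 was 0.0596 and of Bax 0.0655 without venetoclax replicate 4, that of Dusp1 0.0513 without venetoclax replicate 3 and that of Chek2 0.0587 without venetoclax replicate 1 (limma). Over the targets and regulators together the 11 calls in Tcon became 3, 5 or 7 when venetoclax replicate 1, 2 or 3 was left out, and 6, 5 or 19 when vehicle replicate 1, 2 or 3 was. They were 26 with the replicate number as a block, 10 higher and 16 lower, beside 8.92% and 7.9% of all Tcon genes in that fit. Without both libraries numbered 3 they were 23. Without venetoclax replicates 1 and 3, a fit on 2 venetoclax libraries, 1 call was left, that of Chek1. The 30 calls in Treg became 13 or 17 when venetoclax replicate 1 or 4 was left out, and 19 when vehicle replicate 3 was. They became 10 without both libraries numbered 3, where of the genes above Bak1, Bax, Abhd4, Ulk1, Prkab2, Gpx1, Pcna, Trim32, Cdip1, Ptpn14, Chek2, Rpl23 and Ddx17 no longer passed, nor did Sesn2 in Tcon. Without venetoclax replicates 1 and 3 they became 5: Gadd45a, Dapk1, Tnfrsf1b, Sesn3 and Daxx. Calls over all Treg genes also became fewer in both fits, as given above for the rises.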

How the data were processed

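Per the labels' protocols, total RNA was extracted from the sorted cells with the RNeasy mini plus kit and run on an Illumina NovaSeq. The submitters' processing notes name HISAT2, SAMtools and the mm10 genome, while tool versions, read counter and strand setting were not given in the sources used here. Tcon and Treg were deposited as separate tables.

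The deposited signal columns hold reads per gene divided by 1 size factor per library, by the authors. All values (100%) were whole multiples of 1 step within 0.01, so the read counts could be recovered from the deposited values. The authors' deposited log2 fold change and p-value columns were used only where named. Repeated lines were dropped (40 in Tcon, 43 in Treg), and 18 symbols turned into dates in Treg were restored through Entrez identifiers. Identifiers matched RefSeq of GRCm38.p6 for 11168 genes of Tcon and 11064 of Treg. Coordinates are 1-based.

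The main test was limma 3.58.1 (R 4.3.3, empirical Bayes with a trend) on log2 values of the normalized count, with a pseudocount of 1, within each table, with Benjamini-Hochberg adjustment over all its genes and a threshold of 0.05; the interaction used the shared genes. Fits by edgeR 4.0.16 and DESeq2 1.42.0 on recovered reads, other scalings, pseudocounts and filters, a replicate block, a Y-linked covariate and left-out libraries were alternatives. The fitting was tested on simulated data. Levels between subsets are CPM of recovered reads over shared genes, per kb of merged GENCODE exons. P-values measure the spread between libraries; whether each is 1 mouse is not stated.

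Replicate numbers come from the labels. In Tcon the deviations of same-numbered vehicle and venetoclax libraries from their group means correlated at 0.119, 0.555, 0.614 and 0.272 over 9441 genes, each above 0.1. The numbers were therefore taken to pair them in the blocked fit, but the main Tcon fit did not use the pairs. Some differently numbered libraries correlated more than the first pair, so that pairing is uncertain. Vehicle replicates 2 and 4 correlated with venetoclax replicate 1 at 0.292 and 0.223, and vehicle replicate 1 with venetoclax replicate 4 at 0.252. Tcon and Treg libraries of 1 mouse code correlated at 0.371 or more for all 8 codes.

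The members, lists and tests were chosen with earlier results of these data known. Named are every member, up to 4 called genes per list and subset with the smallest p, the 3 genes most like each called member (mean of at least 50), and Foxp3, Cd4 and Bcl2 as checks; Gpx1, Chek2 in Treg and the exceptions stated were chosen after their values were seen, and 1 gene the rule would name is not reported here. Promoter sequences are from RefSeq.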

Additional observations from a re-analysis of the deposited data

Results flagged for a closer look

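In 3 of 40 groups of 4 libraries, 1 per member and group, a single library stood apart by Dixon's ratio of its gap to the range of the group, and chance gives about 1 in 20. Trp53inp1 in vehicle replicate 3 of Tcon was the highest of its group, at 12153.4 normalized counts. Aen in venetoclax replicate 1 of Treg was the highest of its group, at 1010.9 normalized counts. Ei24 in venetoclax replicate 3 of Treg was the lowest of its group, at 1532.4 normalized counts.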

How the results depend on the processing

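The count of called members in Tcon went from 1 to 2 with the replicate block, which added Zmat3 (log2 change 0.263, adjusted p = 0.0328, limma), and to 0 without venetoclax replicates 1 and 3 (Plk2 -2.26). In Treg it went from 5 to 3 without both libraries numbered 3 and to 1 without venetoclax replicates 1 and 3, where Fas turned to -0.034. Over the further targets and regulators the 11 calls in Tcon were 21 in DESeq2 (12.2% of all genes) and 26 with the replicate block (16.8% of all genes). With the Y-linked covariate 2 were called higher and 1 lower in Tcon, and 5 higher and 11 lower in Treg (limma). Of the immediate early genes 6 were called lower in Tcon and 14 in Treg in that fit. The share of all genes called with the covariate is not set beside these counts. With 1 library left out the 11 calls in Tcon were between 3 and 19, and the 30 calls in Treg were between 13 and 30. In fits added after seeing the data they were 23 and 10 without both libraries numbered 3, and 1 and 5 without venetoclax replicates 1 and 3. Members without overlap between subsets numbered 4 to 7 with 1 library left out, and the share of all shared genes is not set beside these counts. In the Treg fit same-numbered libraries correlated at -0.039, 0.414, 0.256 and 0.385, so the numbers were not taken as pairs there; with the block the same 5 members were called, and 2467 genes (22.3%) against 2164. The block changed no other member's call within a subset or in the interaction.

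The other signs that turned also belonged to values that had not passed. Ei24 in Tcon was 0.026 with the Y-linked covariate, 0.03 without both libraries numbered 3 and -0.055 to 0.011 with 1 library left out. Of the differences between subsets, Fas was -0.007 with upper quartile scaling, -0.125 without both libraries numbered 3, -0.052 without venetoclax replicates 1 and 3 and -0.121 to 0.075 with 1 library left out. Mdm2 was -0.023, -0.008 in the same left-out fits and -0.039 to 0.059, Zmat3 was -0.051 without venetoclax replicates 1 and 3 and -0.057 to 0.171, and Plk2 was -0.015 to 0.831. The cause was not tested, beyond the fewer samples of the left-out fits. Reads limit Plk2 most, with as few as 19 in a Tcon library.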
